A study of Mus musculus with 12 samples.

Results

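The fatty acid oxidation and PPAR target genes are 35 mouse genes, taken by name from the 46603 genes of the deposited count table, and all 35 names matched a row through their Ensembl identifier. They hold 3 regulators, 5 genes of fatty acid binding and activation, 4 of the carnitine shuttle, 12 of the mitochondrial oxidation spiral, 4 of peroxisomal oxidation, 3 acyl-CoA thioesterases and 4 further PPAR targets or ketone enzymes. The list goes by gene name and sets no threshold on a measured value. RNA was measured in 12 libraries of poly-A RNA that form 4 groups of 3 biological replicates: ileum of TNFdARE mice, ileum of WT littermates, synovium of the ankle of TNFdARE mice and the same tissue of WT littermates. TNFdARE mice carry in the germline a Tnf gene that lacks its AU-rich element, a stretch of the messenger that limits its stability and translation, and such mice develop ileitis and arthritis. The labels give no age, sex, zygosity or strain background and do not state whether an animal gave both of its tissues, so the p-values below measure the spread between these samples. By its title the study concerns regulatory T cells, and no purpose for these 35 genes is stated.

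Mitochondria take up long-chain fatty acids after their activation to acyl-CoA and their transfer to carnitine, and they shorten them in a repeating spiral of dehydrogenation, hydration, a second dehydrogenation and thiolysis. Peroxisomes begin the oxidation of very long chains. PPARα and PPARδ are nuclear receptors that fatty acids activate and that turn on many genes of this pathway together with the coactivator PGC-1α. In the small intestine the absorptive enterocytes carry this machinery, and in the limb it is abundant in skeletal muscle and fat.

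PPARs bind DNA as partners of RXR at a repeat of the hexamer AGGTCA with 1 base between its copies. Because the members are known as a co-regulated set, this repeat was searched for on both strands of RefSeq promoter windows, which run from 250 bases before to 50 bases after a gene start, allowing 2 mismatches in the 12 bases of the hexamers. Of the members, 30 had a window, and 4 of their 32 windows (12.5%) held a match, beside 3.86% of all 32851 windows. With at most 1 mismatch the share of all windows was 0.554%, and 2 members, Acot12 and Fabp1, met it. These 4 matches are printed 5′ to 3′ on the strand of the gene, from RefSeq on GRCm38.p6, with the matched 13 bases in capitals and 8 bases of flank. The Acot12 stretch lies at chr13:91741403-91741431 (plus strand), the Fabp1 stretch at chr6:71199804-71199832 (plus), the Etfa stretch at chr9:55512300-55512328 (minus) and the Slc25a20 stretch at chr9:108662134-108662162 (plus).
Acot12: taggacccTGACCTCTCACCTcctaagca
Fabp1: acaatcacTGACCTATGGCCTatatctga
Etfa: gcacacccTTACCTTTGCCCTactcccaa
Slc25a20: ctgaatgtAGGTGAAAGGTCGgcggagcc
The match began at -110 in Acot12, at -67 in Fabp1 and at -77 in Etfa relative to the RefSeq gene start, each on the strand opposite to the gene. In Slc25a20 it began 6 bases after the start, on the strand of the gene. A match describes letters in these windows and does not show that a receptor binds there. The windows of Acaa2, Angptl4, Cpt1b, Decr1 and Vnn1 were not analysed here.

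Library totals lay between 14267834 and 16224402 counts. Tnf, the modified gene, stood at 80.0047, 16.5 and 45.7 CPM (counts relative to the TMM-scaled library total) in TNFdARE ileum replicates 1 to 3, against 2.53, 1.33 and 1.56 CPM in WT ileum, and at 40.0, 34.3 and 29.9 CPM in TNFdARE synovium, against 2.20, 2.08 and 1.96 CPM in WT synovium. TNFdARE ileum replicate 2 stood apart from the other TNFdARE ileum libraries: it had the lowest Tnf, the lowest summed level of 12 leukocyte markers (708 CPM, against 2196 and 1448 CPM in replicates 1 and 3) and the highest sum of 14 enterocyte markers (23159 CPM, against 15324 and 18516 CPM). Enterocyte markers marked the ileum label, with sums between 15324 and 29748 CPM there and between 109 and 243 CPM in the synovium. The synovium carried 11 synovial fibroblast markers at 61184 to 101908 CPM, and it also carried 14 skeletal muscle markers at 2483 to 26934 CPM and 8 adipocyte markers at 506 to 1625 CPM.

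Most members stood higher in ileum than in synovium. In a model of all 12 libraries, 25 of 35 members were higher and 2 were lower in TNFdARE ileum than in TNFdARE synovium, where 35.0% and 31.6% of all 16964 genes tested were called in those directions (edgeR, adjusted p below 0.05). In WT mice 25 were higher and 5 were lower in ileum, with 36.0% of all genes called higher and 38.2% called lower. The median log2 difference of the members, ileum over synovium, was 0.76 in TNFdARE and 0.80 in WT mice, and that of all genes tested was 0.05 and -0.03. A lower level in whole tissue can come from fewer cells of a type or from less RNA per cell, and these cannot be told apart in any comparison here.

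The 5 highest members of the ileum per kilobase of exon, in both genotypes, were Fabp2, Acsl5, Etfa, Hadh and Acadl. Fabp2, the intestinal fatty acid binding protein, had 470, 902 and 526 CPM per kb in TNFdARE ileum, and 1257, 1275 and 1122 CPM per kb in WT ileum. In the synovium Fabp2 was at or near the floor, with 1, 1 and 0 counts in TNFdARE and 6, 0 and 0 counts in WT libraries, and Fabp1, the liver form of the binding protein, had 0 to 3 counts in each. Acsl5, an acyl-CoA synthetase of mitochondria and endoplasmic reticulum, averaged 79.5 ± 2.68 CPM per kb in TNFdARE ileum and 20.5 ± 1.41 in TNFdARE synovium, and 111 ± 7.09 in WT ileum and 15.6 ± 0.582 in WT synovium (SD, n = 3 each). Hadh, the short-chain hydroxyacyl-CoA dehydrogenase of the spiral, had 40.4, 70.6 and 48.8 CPM per kb in TNFdARE ileum and 11.6, 12.02 and 9.87 in TNFdARE synovium, a log2 difference of 2.26 ± 0.18 (SE, adjusted p = 1.09e-06). In WT mice Hadh had 64.1, 69.7 and 66.3 CPM per kb in ileum and 15.8, 12.4 and 14.3 in synovium. No ileum library of Hadh overlapped a synovium library.

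In the synovium the order was led by genes of the mitochondrial spiral. Etfa, a subunit of the flavoprotein that takes electrons from the acyl-CoA dehydrogenases, had 36.3, 33.3 and 36.0 CPM per kb in TNFdARE synovium and 47.3, 37.3 and 41.6 in WT synovium. Acadl, the long-chain acyl-CoA dehydrogenase, had 37.8, 32.9 and 32.2 CPM per kb in TNFdARE and 45.4, 38.9 and 40.9 in WT synovium. The ranges of Etfa and Acadl overlapped in each genotype, as did those of the next pair. Acadvl, the very-long-chain dehydrogenase, had 32.8, 28.4 and 28.2 CPM per kb in TNFdARE and 40.7, 31.5 and 30.8 in WT synovium. Acaa2, the mitochondrial thiolase, had 27.1, 29.8 and 26.4 CPM per kb in TNFdARE and 39.1, 31.9 and 33.7 in WT synovium. The fifth in both genotypes was Angptl4, a secreted inhibitor of lipoprotein lipase, at 23.0 ± 5.38 CPM per kb in TNFdARE and 27.7 ± 4.49 in WT synovium (SD, n = 3 each).

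**Figure D1:**
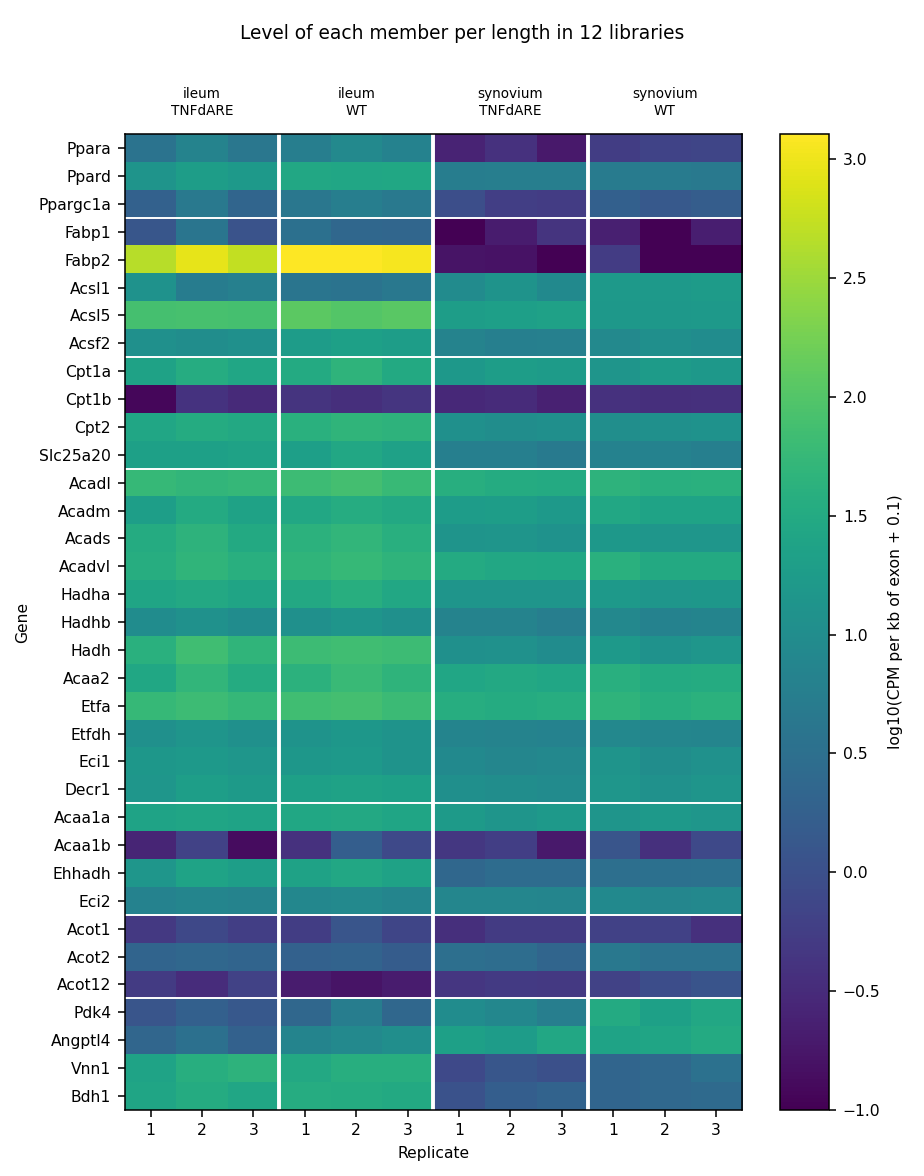
Level of the 35 members per kilobase of exon (colour, log10 of CPM per kb plus 0.1) in 12 libraries; columns are replicates 1 to 3 of ileum TNFdARE, ileum WT, synovium TNFdARE and synovium WT, and white lines part the roles. Fabp2 is the brightest row in ileum and is near the floor in synovium, while Pdk4 and Angptl4 are brighter in synovium.

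A few members ran the other way. Pdk4, the kinase that shuts off pyruvate dehydrogenase when fatty acids are burned, was lower in ileum than in synovium by a log2 difference of -2.499 ± 0.371 in TNFdARE (adjusted p = 0.000143) and -3.06 ± 0.36 in WT mice (adjusted p = 1.84e-05). Angptl4 was lower in ileum by -3.27 ± 0.25 in TNFdARE (adjusted p = 7.81e-07) and by -1.68 ± 0.23 in WT mice (adjusted p = 6.01e-05). Acsl1, Acot2 and Acot12 were lower in ileum in WT mice (log2 differences of -2.11, -1.12 and -3.09), while in TNFdARE mice their differences of -0.40, -0.33 and 0.07 did not pass the threshold. At the other end, Ppara, Vnn1 and Bdh1 were higher in ileum by 4.74, 5.28 and 4.25 in TNFdARE and by 3.63, 3.76 and 3.84 in WT mice. Bdh1 is the enzyme that interconverts the ketone bodies acetoacetate and 3-hydroxybutyrate.

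Cpt1b, the muscle form of carnitine palmitoyltransferase 1, was nearly absent from the counts. It had 1, 14 and 10 counts in TNFdARE ileum and 15, 12 and 16 in WT ileum, and 11, 13 and 8 counts in TNFdARE synovium and 14, 13 and 14 in WT synovium. The same synovium libraries held the 14 skeletal muscle markers at 2483 to 26934 CPM. GENCODE vM21 places another gene model of the same strand, Gm44502, over 81.4% of the exonic bases of Cpt1b, and how shared reads were counted is not given in the sources used here, so the level of Cpt1b is uncertain.

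In the ileum the genotype comparison asked how the members differ between TNFdARE and WT mice. All 35 members passed the filter on low counts; 1 rose and 5 fell, where 4.12% of all 15462 genes tested were called higher and 1.57% lower. Angptl4, Acsf2, Ppard, Cpt2 and Acsl5 fell and Acot12 rose. Of 14 alternatives, the calls of Acsf2 and Ppard held under 8, those of Angptl4 and Acot12 under 7 and those of Cpt2 and Acsl5 under 6. The median log2 fold change of the members was -0.32, against 0.00 for all genes tested, and 30 of 35 had a negative sign. The groups did not overlap in 13 members, which is 37.1% of them, and in 37.3% of all genes tested. The count of called members depended on single libraries: it was 2 without TNFdARE replicate 1, 19 without TNFdARE replicate 2, and 0 without TNFdARE replicate 3 or without WT replicate 1, 2 or 3. It was 0 with limma-voom too, which called 0 of all genes. The share of all genes called with a library left out is not given. The counts of those fits are therefore not a result about the members.

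**Figure D2:**
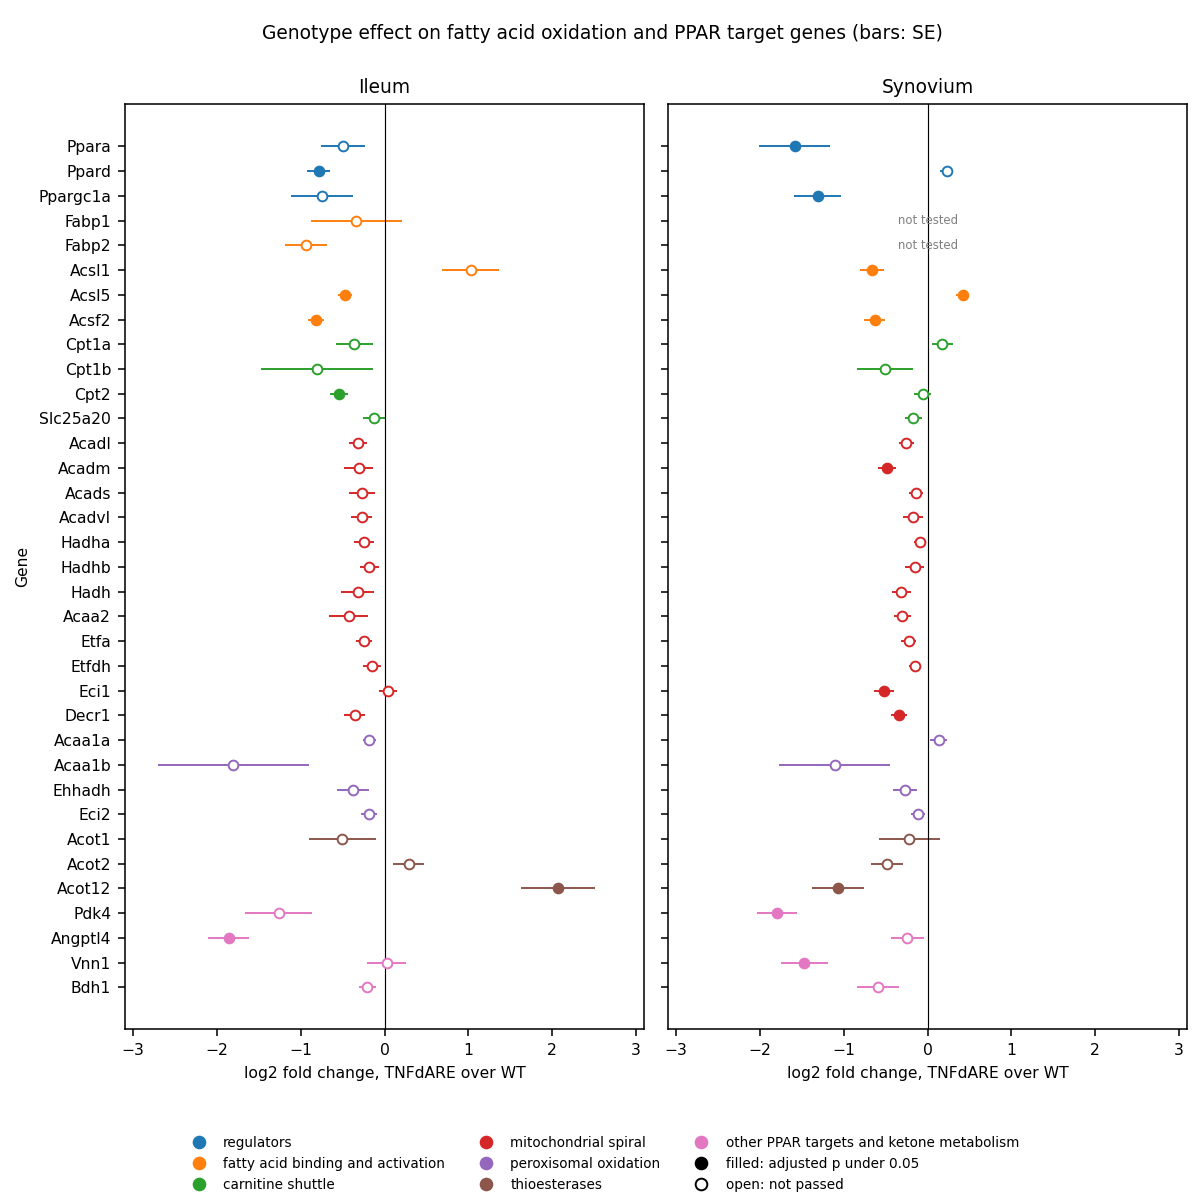
Log2 fold change of each member, TNFdARE over WT, in ileum (left) and synovium (right); bars are standard errors, colours are roles, and filled points passed the adjusted p threshold. Most points lie left of 0 in both tissues; Ppard, Acsl5, Acsl1 and Acot12, among others, lie on opposite sides of 0 in the 2 tissues.

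Among the regulators, Ppard, which encodes the widely expressed receptor PPARδ (ENSMUSG00000002250, GRCm38 chromosome 17, 28232700 to 28301474, plus strand), had 95.7, 139 and 114 CPM in TNFdARE ileum, against 206, 196 and 199 CPM in WT ileum. Every TNFdARE library lay below every WT library, and Ppard fell by 0.79 ± 0.13 on the log2 scale (SE, adjusted p = 0.0404). Ppara, the receptor best known from liver and heart, had 13.3, 24.7 and 15.5 CPM in TNFdARE and 20.6, 30.7 and 24.1 CPM in WT ileum. Ppargc1a, which encodes PGC-1α, had 11.4, 28.7 and 13.4 CPM in TNFdARE and 26.0, 35.4 and 28.1 CPM in WT ileum. For Ppara and Ppargc1a the groups overlapped through TNFdARE replicate 2, and their log2 fold changes of -0.50 ± 0.26 and -0.75 ± 0.37 did not pass (adjusted p = 0.250 and 0.230).

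Of the binding and activation genes, Acsf2, an acyl-CoA synthetase of mitochondria with a preference for medium chains, had 38.4, 33.5 and 37.7 CPM in TNFdARE ileum, against 60.3, 70.8 and 62.5 CPM in WT ileum. The groups lay apart, and Acsf2 fell by 0.82 ± 0.10 (adjusted p = 0.0389). Acsl5 (ENSMUSG00000024981, chromosome 19, 55251938 to 55297720, plus strand) had 368, 386 and 363 CPM in TNFdARE ileum, against 543, 480 and 530 CPM in WT ileum, and fell by 0.47 ± 0.08 (adjusted p = 0.0404). With replicate number as a block the Acsl5 value was -0.47, with an adjusted p of 0.0511. Fabp2 had 438, 838 and 489 CPM in TNFdARE ileum, against 1166, 1182 and 1042 CPM in WT ileum. These groups did not overlap either, and the log2 fold change of -0.94 ± 0.25 had an adjusted p of 0.0701. Acsl1, the long-chain acyl-CoA synthetase typical of muscle, fat and liver, had 125, 52.9 and 60.9 CPM in TNFdARE ileum, against 38.7, 35.5 and 42.9 CPM in WT ileum. All TNFdARE libraries were above WT, replicate 1 by far the most, and the value of 1.03 ± 0.34 had an adjusted p of 0.112. Fabp1 was low in the ileum, with 8 to 30 counts per library, and its value of -0.34 ± 0.54 did not pass (adjusted p = 0.705).

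In the carnitine shuttle, Cpt2, the inner-membrane transferase that releases acyl-CoA into the matrix, had 62.3, 78.0 and 68.7 CPM in TNFdARE ileum, against 92.7, 110 and 102 CPM in WT ileum. It fell by 0.54 ± 0.11 (adjusted p = 0.0445) with no overlap between groups. Cpt1a, the liver form of the outer-membrane transferase that is the pathway's control point, and Slc25a20, the carrier between both, had values of -0.36 and -0.13 that did not pass. No member of the mitochondrial spiral passed in the ileum: 11 of 12 were negative, their median was -0.27, and they ranged from -0.43 in Acaa2 to 0.04 in Eci1. The groups of 2 of these 12 did not overlap. The 4 peroxisomal genes were negative and did not pass, with Acaa1a, Ehhadh and Eci2 at -0.18, -0.38 and -0.18. Acaa1b, a thiolase copy with 1 to 43 counts per ileum library, had a value of -1.80 ± 0.90.

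Acot12, a cytosolic thioesterase that hydrolyses acetyl-CoA (ENSMUSG00000021620, chromosome 13, 91741512 to 91786148, plus strand), had 22, 11 and 25 counts in TNFdARE ileum, against 5, 3 and 5 counts in WT ileum. It rose by 2.07 ± 0.44 (adjusted p = 0.0486) with no overlap, at a level of 1.26 ± 0.480 CPM in TNFdARE and 0.294 ± 0.0725 CPM in WT (SD, n = 3 each). An antisense gene, 4833422C13Rik, shares 149 exonic bases with Acot12, and the strand setting of the counting is not given in the sources used here. Angptl4 (ENSMUSG00000002289, chromosome 17, 33773750 to 33781830, minus strand) had 7.55, 10.6 and 6.17 CPM in TNFdARE ileum, against 23.7, 28.6 and 36.1 CPM in WT ileum. The groups lay far apart, and Angptl4 fell by 1.86 ± 0.24 (adjusted p = 0.0389), a level 3.63-fold lower. Pdk4 had 3.75, 5.90 and 4.27 CPM in TNFdARE ileum, against 7.67, 18.1 and 7.65 CPM in WT ileum; the groups did not overlap, and its value of -1.26 ± 0.40 did not pass (adjusted p = 0.0963). With replicate number as a block Pdk4 passed, at -1.18 ± 0.21 (adjusted p = 0.0423). Vnn1, a pantetheinase and classical PPARα target, had 56.9, 86.7 and 106 CPM in TNFdARE and 70.3, 88.1 and 87.3 CPM in WT ileum, a value of 0.02 ± 0.23. Acot1, Acot2 and Bdh1 did not pass, at -0.50, 0.29 and -0.20.

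**Figure D3:**
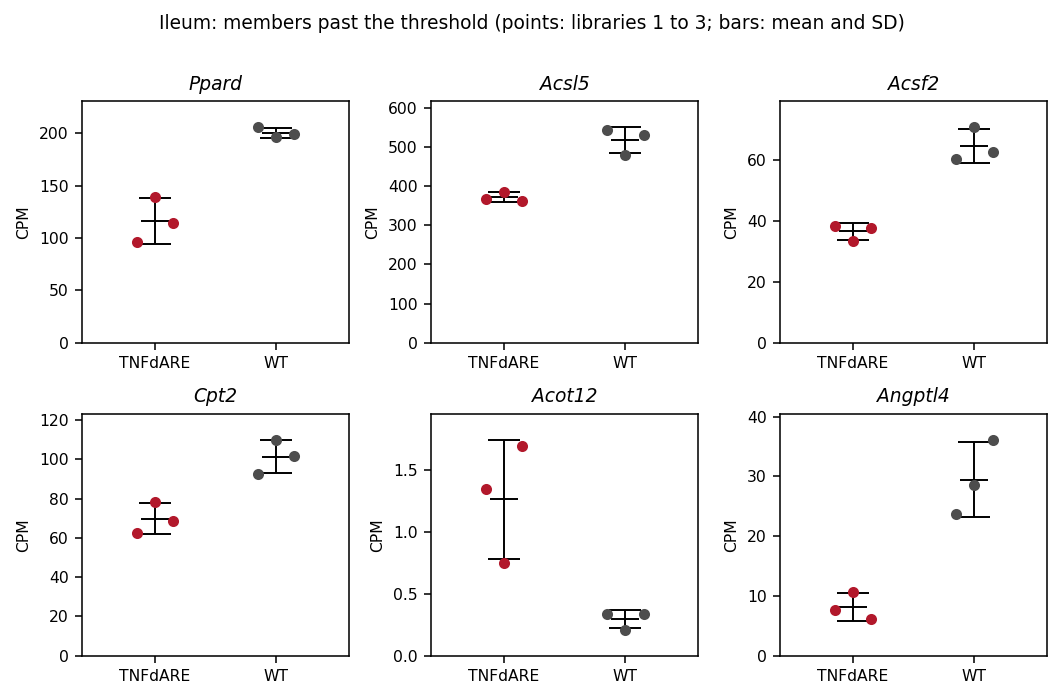
CPM of the 6 members called in the ileum, TNFdARE left of WT; points are libraries 1 to 3 and bars are mean and SD. TNFdARE libraries lie below all WT libraries in 5 panels and above them in Acot12.

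Cell type markers moved with genotype in the same ileum libraries. The summed level of 14 enterocyte markers was 15324 to 23159 CPM in TNFdARE and 29137 to 29748 CPM in WT ileum. Of the 13 tested, 12 were negative, with a list median of -0.44, and 1 was positive, at 3.29. With edgeR 0 passed, while 7 had an unadjusted p below 0.05, as did 4716 of all 15462 genes tested. All 5 gut smooth muscle markers were negative too, with a median of -0.34, and 0 passed. Of 7 crypt markers 5 were negative, with a median of -0.11, and 0 passed. The sum of 12 leukocyte markers was 708 to 2196 CPM in TNFdARE and 239 to 316 CPM in WT ileum, and 6 of 12 rose, led by Csf3r, Itgax and S100a9. Of the 10 synovial fibroblast markers tested in the ileum, 4 rose, among them Dcn and Lum, and 1 fell (Clic5). No enterocyte or leukocyte marker was at 0 throughout an ileum group. With the enterocyte level as a covariate, an alternative chosen after seeing the data, 0 of the 35 members and 3 of all genes were called, and the value of Ppard was -0.25, that of Cpt2 -0.17, that of Angptl4 -1.21 and that of Acsf2 -1.01. Of 14 genes of the mitochondrial matrix and outer membrane outside the pathway, 1 fell (Cs, citrate synthase, -0.47 ± 0.10, adjusted p = 0.0459). Their median was -0.33, and 13 of the 14 were negative. The covariate was the mean log2 CPM of the markers tested, and its overlap between genotypes is not given here. The enterocyte sums did not overlap between genotypes, so the covariate fit is not read as separating enterocyte level from genotype. Whether the cell mixture has a part in the ileum values was not tested.

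In the synovium 33 of 35 members passed the filter on low counts, Fabp1 and Fabp2 being left out. Of these, 1 rose and 10 fell, where 13.1% of all 15599 genes tested were called higher and 10.7% lower. Pdk4, Ppara, Vnn1, Ppargc1a, Acot12, Acsl1, Acsf2, Eci1, Acadm and Decr1 fell, and Acsl5 rose. Of 15 alternatives, the call of Pdk4 held under 14, those of Acsl5 and Vnn1 under 13 and those of Acsf2 and Acadm under 12. That of Ppargc1a held under 11, that of Eci1 under 9 and those of Ppara and Acsl1 under 8. The calls of Decr1 and Acot12 held under 7 and 5. The median log2 fold change of the tested members was -0.27, against 0.00 for all genes, with 29 of 33 negative. The groups did not overlap in 23 tested members, which is 69.7% of them, and in 44.5% of all genes tested. The count of called members was 7, 8 and 3 without TNFdARE replicates 1, 2 and 3, and 7, 10 and 5 without WT replicates 1, 2 and 3. Here too the share of all genes called in these fits is not given, so the counts are not a result about the members.

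Pdk4 (ENSMUSG00000019577, chromosome 6, 5483351 to 5496309, minus strand) had 36.2, 28.9 and 20.5 CPM in TNFdARE synovium, against 116, 77.9 and 103 CPM in WT synovium. The lowest WT library was above the highest TNFdARE library by a wide gap. Pdk4 fell by 1.80 ± 0.24 (adjusted p = 0.00477), a level 3.47-fold lower, and among the 35 members it ranked 17 per length in TNFdARE and 6 in WT. Vnn1 (chromosome 10, 23894688 to 23905343, plus strand) had 1.75, 2.98 and 2.27 CPM in TNFdARE synovium, against 5.25, 5.83 and 8.32 CPM in WT synovium. It fell by 1.47 ± 0.28 (adjusted p = 0.0109) with no overlap. Angptl4 had 78.9, 69.2 and 108 CPM in TNFdARE and 87.4, 95.6 and 120 CPM in WT synovium; the groups overlapped and the value of -0.24 ± 0.19 did not pass (adjusted p = 0.410). Bdh1 stood at -0.59 ± 0.25 (adjusted p = 0.125), and with the replicate block it passed at -0.63 ± 0.19 (adjusted p = 0.0424).

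The regulators split. Ppara had 0.625, 1.154 and 0.367 CPM in TNFdARE synovium, against 1.77, 2.21 and 2.502 CPM in WT synovium, from 6 to 19 and 25 to 37 counts. It fell by 1.58 ± 0.42 (adjusted p = 0.0342) with no overlap. Ppargc1a had 6.06, 3.34 and 3.06 CPM in TNFdARE synovium, against 11.6, 8.85 and 10.5 CPM in WT synovium, and fell by 1.31 ± 0.28 (adjusted p = 0.0157), again with the groups apart. Ppard had 42.4, 44.6 and 44.5 CPM in TNFdARE and 38.9, 39.3 and 34.2 CPM in WT synovium. All TNFdARE libraries of Ppard were above WT by a narrow margin, and the value of 0.23 ± 0.08 did not pass (adjusted p = 0.0845).

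The activation genes split as well. Acsl1 (chromosome 8, 46471037 to 46536051, plus strand) had 102, 142 and 97.99 CPM in TNFdARE synovium, against 180, 171 and 190 CPM in WT synovium, and fell by 0.66 ± 0.14 (adjusted p = 0.0175). Acsf2 had 24.3, 20.8 and 21.9 CPM in TNFdARE synovium, against 29.2, 39.4 and 35.1 CPM in WT synovium, and fell by 0.63 ± 0.13 (adjusted p = 0.0130). Acsl5 was the member that rose, by 0.42 ± 0.08 (adjusted p = 0.00878), with 96.8, 105 and 113 CPM in TNFdARE synovium, against 75.5, 77.1 and 81.9 CPM in WT synovium. For all of these the groups did not overlap. In the carnitine shuttle none passed; Cpt1a, Cpt1b, Cpt2 and Slc25a20 stood at 0.18, -0.51, -0.06 and -0.17.

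All 12 genes of the mitochondrial spiral had a negative sign in the synovium, with a median of -0.24, and 3 fell. Of the 14 mitochondrial genes outside the pathway, 13 were negative there too. Acadm, the medium-chain acyl-CoA dehydrogenase, had 76.7, 79.3 and 65.5 CPM in TNFdARE synovium, against 117, 96.6 and 95.7 CPM in WT synovium, and fell by 0.48 ± 0.11 (adjusted p = 0.0192). Eci1, an isomerase that prepares the double bonds of unsaturated fatty acids for the spiral, had 19.5, 16.6 and 18.3 CPM in TNFdARE synovium, against 29.0, 22.7 and 26.2 CPM in WT synovium, and fell by 0.52 ± 0.12 (adjusted p = 0.0215). Decr1, the dienoyl-CoA reductase for such chains, had 43.8, 41.1 and 39.5 CPM in TNFdARE synovium, against 55.9, 46.5 and 55.6 CPM in WT synovium, and fell by 0.34 ± 0.09 (adjusted p = 0.0370). None of these 3 overlapped between groups. The other 9 did not pass and ranged from -0.31 in Hadh to -0.09 in Hadha; of these Acadl passed with the replicate block, at -0.25 ± 0.07 (adjusted p = 0.0296). Hadha and Hadhb encode the subunits of the trifunctional protein and stand head to head on chromosome 5 with 86 bases between their starts; their values were -0.09 and -0.15 in the synovium and -0.25 and -0.18 in the ileum. Acadvl shares 42.9% of its exonic bases with Dvl2 on the opposite strand.

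The peroxisomal genes did not pass in the synovium, at 0.13, -1.11, -0.27 and -0.11 for Acaa1a, Acaa1b, Ehhadh and Eci2. Acot12 had 1.19, 1.40 and 1.35 CPM in TNFdARE synovium, against 1.84, 2.82 and 3.58 CPM in WT synovium, from 19 to 23 and 26 to 53 counts. It fell by 1.07 ± 0.31 (adjusted p = 0.0461) with no overlap, a call that held under 5 of 15 alternatives. Acot1 and Acot2, neighbouring copies on chromosome 12 for cytosolic and mitochondrial acyl-CoA, stood at -0.22 and -0.48 and did not pass. Of the 100-base stretches of their transcripts, 9.32% in Acot1 and 17.1% in Acot2 are identical in the other, and likewise 7.21% in Acaa1a and 19.3% in Acaa1b, so their counts are uncertain where the counting split such reads.

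**Figure D4:**
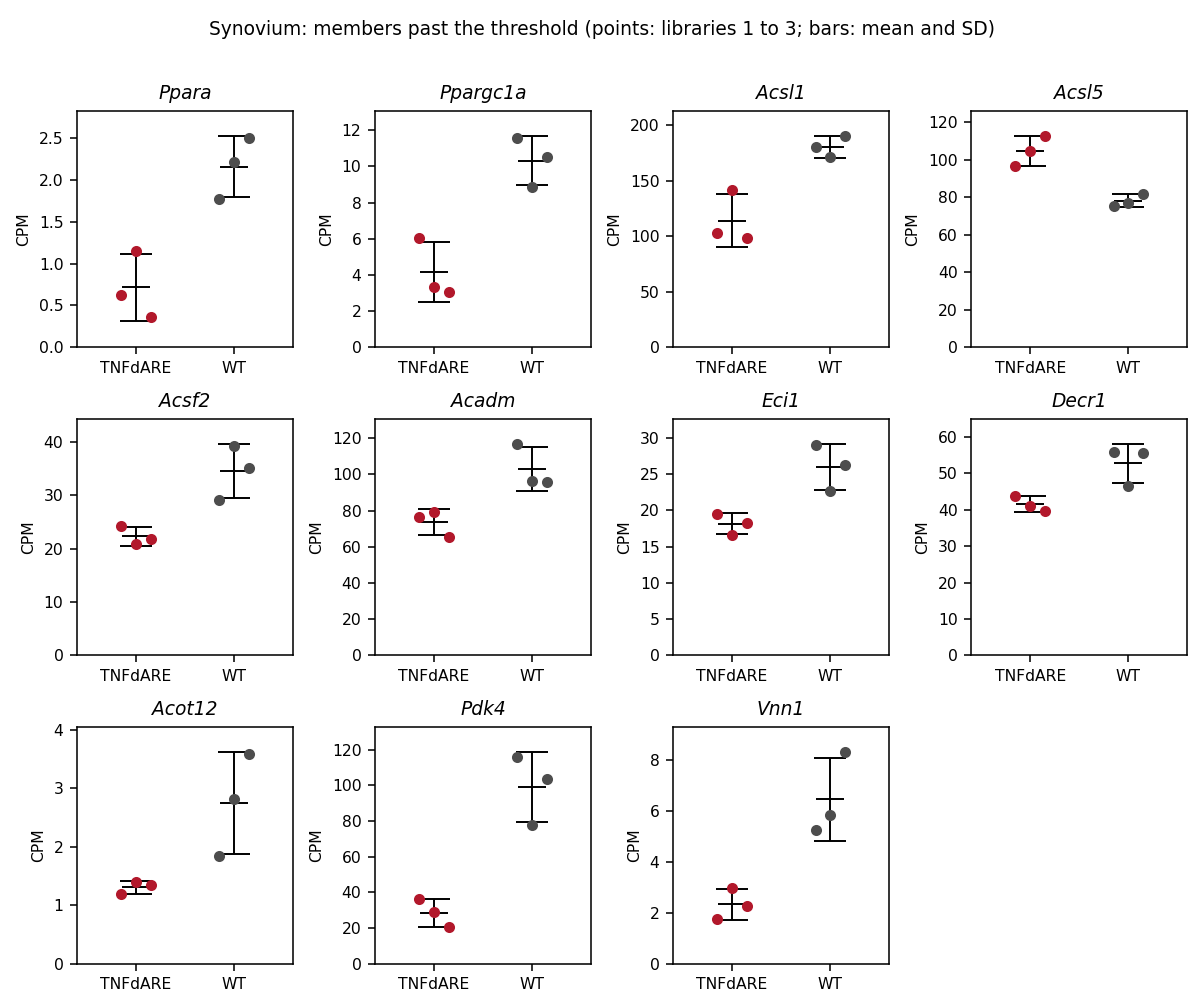
CPM of the 11 members called in the synovium, TNFdARE left of WT; points are libraries 1 to 3 and bars are mean and SD. TNFdARE libraries lie above all WT libraries in Acsl5 and below them in the other 10 panels.

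Markers of several cell types moved with genotype in these synovium libraries. The 14 skeletal muscle markers summed to 2483 to 9942 CPM in TNFdARE and 13648 to 26934 CPM in WT synovium; all 14 were negative, their median was -1.66, and 1 passed (Myh4, -1.77 ± 0.46, adjusted p = 0.0429). The 8 adipocyte markers summed to 506 to 905 CPM in TNFdARE and 1348 to 1625 CPM in WT synovium, and 6 of 7 tested fell, led by Plin1, Lep and Adipoq. The 12 leukocyte markers summed to 2991 to 5155 CPM in TNFdARE and 1734 to 3586 CPM in WT synovium; 6 rose, among them Itgax and Adgre1, while 4 of 12 were negative, down to -1.35, and did not pass, and the median was 0.47. The chondrocyte markers summed to 1589 to 1953 CPM in TNFdARE and 2681 to 3613 CPM in WT synovium; all 6 tested were negative, with a median of -1.19, and 2 fell (Comp and Sox9). The 5 smooth muscle markers summed to 437 to 651 CPM in TNFdARE and 952 to 1461 CPM in WT synovium; all were negative, with a median of -1.21, and 2 fell (Myh11 and Actg2). Of the 11 synovial fibroblast markers 5 rose, among them Pdpn, and 2 fell (Prg4 and Clic5), with a median of -0.14 and sums of 61336 to 63813 CPM in TNFdARE and 61184 to 101908 CPM in WT synovium. No muscle, adipocyte or leukocyte marker was at 0 throughout a synovium group. With the skeletal muscle level as a covariate, 1 member was called (Pdk4, -1.03 ± 0.16, adjusted p = 0.0226) and 546 of all genes. With the adipocyte level as a covariate, chosen after seeing the data, 0 members and 21 of all genes were called. In these fits Acsl5 stood at 0.24 and 0.56, Acadm at -0.19 and -0.67, and Vnn1 at -1.84 and -0.34, with the muscle value given before the adipocyte value. Of the 14 other mitochondrial genes 6 fell, among them Sdha, Mdh2 and Ogdh, and their median was -0.30. Each covariate was the mean log2 CPM of the markers tested, and its overlap between genotypes is not given here. The muscle and adipocyte sums did not overlap between genotypes, so the covariate fits are not read as separating these levels from genotype. The part of muscle, fat and other cells in the synovium values was not tested.

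**Figure D5:**
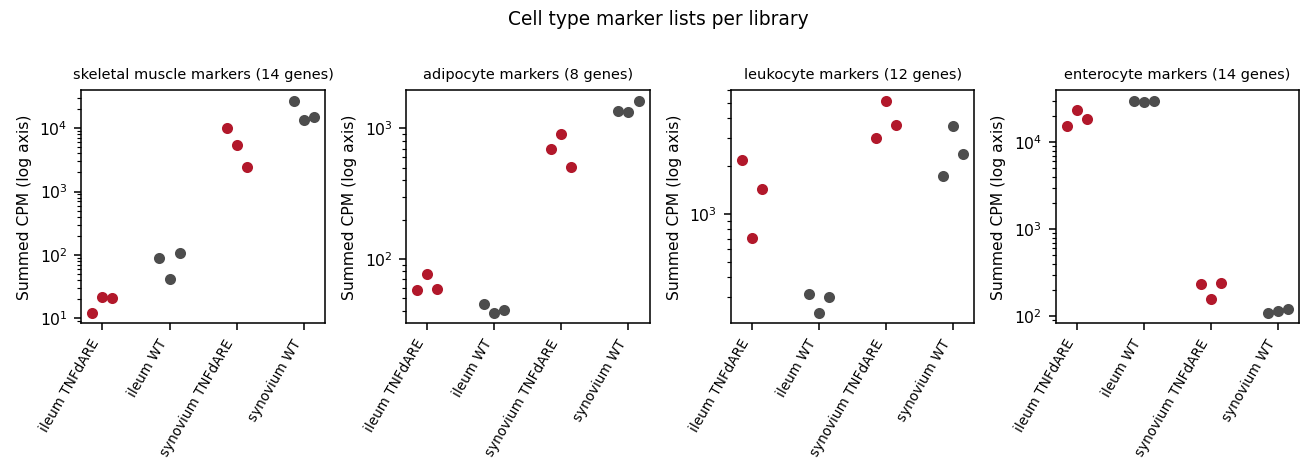
Summed CPM (log axis) of skeletal muscle, adipocyte, leukocyte and enterocyte markers in each library, with TNFdARE left of WT in each tissue. Muscle and adipocyte sums are lower in TNFdARE than in WT synovium, and enterocyte sums are lower in TNFdARE than in WT ileum.

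The genotype effects of both tissues were set against each other as an interaction, the synovium effect minus the ileum effect. It passed in 7 of 35 members, where 12.1% of all 16964 genes tested were called. The median difference was 0.04 for the members and -0.08 for all genes. Acsl5 (0.87 ± 0.11, adjusted p = 0.00162) fell in ileum and rose in synovium, and Acot12 (-3.16 ± 0.53, adjusted p = 0.00584) rose in ileum and fell in synovium. Ppard (0.99 ± 0.16, adjusted p = 0.00577) and Angptl4 (1.59 ± 0.33, adjusted p = 0.0150) fell in ileum and did not pass in synovium. Acsl1 (-1.71 ± 0.39, adjusted p = 0.0218), Vnn1 (-1.52 ± 0.37, adjusted p = 0.0277) and Eci1 (-0.59 ± 0.16, adjusted p = 0.0429) fell in synovium and did not pass in ileum. The calls of Ppard, Acsl5, Acot12 and Angptl4 held under all 18 alternatives of this comparison, whereas that of Acsl1 held under 14, that of Vnn1 under 10 and that of Eci1 under 3. The Acsl1 call was lost without ileum WT replicate 1 or 2 or synovium TNFdARE replicate 3, at -1.62 to -1.57 (adjusted p = 0.0511 to 0.0572). That of Vnn1 was lost without ileum TNFdARE replicate 3, ileum WT replicate 1, 2 or 3, synovium TNFdARE replicate 1 or 3, or synovium WT replicate 3, at -1.51 to -1.30 (adjusted p = 0.0571 to 0.0767). That of Eci1 was lost without any single library other than synovium WT replicate 2, at -0.64 to -0.43 (adjusted p = 0.0510 to 0.144). Acsf2 fell in both tissues, and the difference of its effects was 0.17 ± 0.16 (adjusted p = 0.541). For Pdk4 the difference was -0.56 ± 0.50 (adjusted p = 0.502).

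A further 69 genes of the pathway, outside the 35, were listed by role for comparison. In the ileum 59 were tested, 2 rose (Lpin1, 1.19 ± 0.22, and Acsl4, 1.01 ± 0.21) and 1 fell (Pex11a, -0.74 ± 0.12), with a median of -0.18, beside 4.12% higher and 1.57% lower of all genes. In the synovium 60 were tested, 5 rose and 15 fell, with a median of -0.27, beside 13.1% higher and 10.7% lower of all genes. Pparg, the PPAR of adipocytes, had 14.5, 21.1 and 14.8 CPM in TNFdARE synovium, against 37.0, 40.7 and 42.4 CPM in WT synovium, and fell by 1.25 ± 0.16 (adjusted p = 0.00236). Pnpla2 and Lipe, the lipases that release fatty acids from stored fat, fell by 1.16 and 1.20, and Ucp3, an uncoupling protein of muscle mitochondria, fell by 1.56. Pex11a, a peroxisome division factor and PPARα target, fell in both tissues, by 0.76 ± 0.12 in the synovium (adjusted p = 0.0049). Acsl4, the synthetase for arachidonic acid, rose in both, by 0.63 ± 0.10 in the synovium (adjusted p = 0.0056).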

How the data were processed

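Per the labels' protocols, messenger RNA was selected by poly-A and prepared with a kit that keeps the strand (TruSeq Stranded mRNA), and single reads of 100 cycles were sequenced. Per the submitters' processing notes, reads were handled with Bowtie2 2.3.3.1 and cutadapt, on GRCm38. Not given in the sources used here are the counting tool, its strand setting and the annotation release. Raw counts per gene, as the authors deposited them, were used unchanged. A table of FPKM that the authors also deposited was not used. Symbols and positions came from GENCODE vM21, which matched 98.9% of the identifiers.

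Genes were filtered with filterByExpr, scaled by TMM and tested with edgeR 4.0.16 in R 4.3.3 (robust quasi-likelihood F test, two-sided, Benjamini-Hochberg adjustment over all genes tested, threshold 0.05). Adjusted p-values are edgeR's except where limma-voom is named. Each tissue was fitted on its 6 libraries; the interaction and the tissue comparisons used all 12 in a model of 4 groups. CPM are scaled by TMM within a tissue, and CPM per kb of exon by TMM over all 12 libraries. The members and all gene lists were chosen with earlier results of these data known. Members called in a genotype comparison or the interaction, the 5 highest per length in either tissue and the 3 regulators are given in full; at most 3 genes are named from any other list. Reads carried no molecular identifiers, so a count does not stand for an independent molecule.

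Replicate numbers were checked as a pairing by correlating deviations from the group mean over genes with mean log2 CPM above 3. For ileum replicates 1, 2 and 3 the correlations between genotypes were 0.232, 0.257 and 0.157, and for synovium 0.611, 0.359 and 0.231. Of the pairs of unequal number, 2 also exceeded 0.1: ileum TNFdARE 3 with WT 1 (0.156) and synovium TNFdARE 3 with WT 2 (0.286). The sample titles number the replicates and state no pairing between genotypes. All equal-number values exceed 0.1, but the unequal synovium pair at 0.286 exceeds the equal-number value of 0.231. A pairing is therefore not established, and the fits without a block are the main ones. Within a tissue the blocked fit is given wherever it altered the call of a member. The procedure was tested on simulated data with some genes changed 2-fold or 4-fold. There 19 of 161 calls were false in the ileum, 14 of 170 in the synovium and 4 of 92 in the interaction. In that order, 55%, 62% and 27% of 2-fold changes and 87%, 94% and 61% of 4-fold changes were recovered. With no change simulated, 3, 3 and 0 genes were called. Alternatives were RLE factors, library size alone, no filter, DESeq2 1.42.0, limma-voom (limma 3.58.1), a block, all 12 libraries in 1 fit, a marker level as covariate, and each library left out.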

Additional observations from a re-analysis of the deposited data

Results flagged for a closer look

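The genotype effect differed between synovium and ileum, by a test of the difference itself (the interaction in edgeR), in 7 members. Given as synovium minus ileum on the log2 scale, the differences were 0.99 for Ppard, -1.71 for Acsl1, 0.87 for Acsl5, -0.59 for Eci1, -3.16 for Acot12, 1.59 for Angptl4 and -1.52 for Vnn1. Acot12 rests on 3 to 25 counts per ileum library and 19 to 53 per synovium library. No group has more than 3 libraries, so no outlier rule was applied to single libraries. Each was left out in turn, and TNFdARE ileum replicate 2 is described above as standing apart.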

How the results depend on the processing

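In the ileum, 6 members were called, and 5 to 9 with RLE factors, library size alone, no filter, DESeq2, the replicate block or all 12 libraries in 1 fit. The number was 0 with limma-voom (0 of all genes) and 0 with the enterocyte level as covariate, and 0 to 19 when single libraries were left out. With limma-voom the adjusted p of the 6 members lay between 0.0582 and 0.0773 and the direction of each was kept. Library size alone moved the median of all ileum genes to 0.11 on the log2 scale. Apart from limma-voom in the ileum and the covariate fits, calls over all genes under the alternatives are not given here. The counts in this section are therefore not a result about the members.

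In the synovium, 11 members were called and 9 to 13 under those settings, but 1 with the muscle level and 0 with the adipocyte level as covariate, and 3 to 10 when single libraries were left out. With the adipocyte level as covariate Acot12 turned to 0.11 (adjusted p = 0.955; its adjusted p ranged from 0.0280 to 0.955 over all settings). The enterocyte and adipocyte covariates were chosen after seeing the data. The cause of these changes was not tested. A fit with a covariate or fewer libraries has fewer residual degrees of freedom. Each covariate was a mean log2 CPM of markers, and its overlap between genotypes is not given. The summed markers did not overlap between genotypes, so a covariate fit is not read as separating marker level from genotype.

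The interaction was called in 7 members, in 5 to 8 under other settings and in 4 to 7 with a library left out, 4 without ileum WT replicate 1 or 2 or synovium TNFdARE replicate 3. Across tissues the correlations of equal replicate numbers ranged from -0.108 to 0.163, and only that of TNFdARE replicate 3 (0.163) exceeded 0.1. Pairs of unequal number were not computed across tissues. With genotype and number as a block 5 members kept the interaction call. Acsl1 (-1.63, adjusted p = 0.0590) and Eci1 (-0.59, adjusted p = 0.106) did not pass in that fit. With this block 29 members in WT and 27 in TNFdARE mice differed between tissues. Between tissues 30 members differed in WT and 27 in TNFdARE mice, and 28 to 30 and 25 to 29 under the alternatives. With the replicate block within a tissue, 6 members were called in the ileum, Acsl5 being lost and Pdk4 gained, and 13 in the synovium, where Acadl and Bdh1 were gained and no call was lost. Genes of few counts, among them Acot12, Acaa1b, Cpt1b, Fabp1 and synovial Ppara, are limited by depth.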

Other observations

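Among the 35 members, WT ileum replicate 2 was the highest of the WT ileum in Pdk4 (18.1 CPM, against 7.67 and 7.65 CPM), in Ppara (30.7 CPM, against 20.6 and 24.1 CPM) and in Cpt1a (344 CPM, against 235 and 226 CPM). These genes were chosen after their values were seen.

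Abcd2, a peroxisomal transporter of very long chains, had 6.02, 4.48 and 5.02 CPM in TNFdARE ileum, against 3.20, 1.97 and 2.03 CPM in WT ileum. In the synovium it had 41.7, 63.4 and 39.6 CPM in TNFdARE, against 85.1, 92.0 and 101.3 CPM in WT. The difference of its genotype effects, synovium minus ileum, was -2.07 ± 0.31 (adjusted p = 0.00376). Lpin1, a coactivator of PPARα and phosphatidate phosphatase, had 50.4, 28.8 and 47.8 CPM in TNFdARE ileum, against 20.5, 17.0 and 18.2 CPM in WT ileum. In the synovium Lpin1 had 52.0, 49.3 and 34.2 CPM in TNFdARE, against 113, 69.3 and 77.8 CPM in WT, and the difference of effects was -2.16 ± 0.35 (adjusted p = 0.00579).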
